A study of Mus musculus with 2 samples.

Results

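The cytosolic ribosomal protein genes encode the proteins of the large and the small subunit of the cytoplasmic ribosome. They were chosen by symbol: Rpl or Rps followed by a digit, with Rplp0, Rplp1, Rplp2 and Rpsa, and without numbered pseudogenes and the Rps6k kinases. The rule took 86 of the 32285 mouse genes in the count table, 52 of the large and 34 of the small subunit, and no measured value entered it. Of these, 77 are standard ribosomal proteins. The other 9 are the paralogs Rpl3l, Rpl7l1, Rpl10l, Rpl22l1, Rpl36al, Rpl39l, Rps27l and Rps27rt, and Rps19bp1, which encodes a protein that binds a ribosomal protein and is no ribosomal protein itself. Fau and Rack1 also encode ribosomal proteins, but their symbols place them outside the rule.

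Single-cell RNA profiles came from mouse brain holding tumours of GL261, a mouse glioma line used as a model of glioblastoma, taken 24 days after implantation. One group had hosts labelled Cav3.2KO, with the genotype Cacna1H-/-, and the other had hosts labelled WT, with the genotype C57BlL6 WT. Cacna1h encodes Cav3.2, a T-type calcium channel. Hosts of both groups received GL261 cells, which have Cacna1h genes of their own. There was 1 library per group, and the sources used here do not give the number, age and sex of the animals behind it. The host genotype and everything else that differed between the libraries therefore cannot be told apart. No test was possible, and all intervals are 95% intervals for counting error alone.

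After filtering, 6575 cells with 100764971 mouse UMIs (unique molecular identifiers, counted once per captured transcript) were kept under the Cav3.2KO label, against 3110 cells with 52031677 UMIs under the WT label. The medians were 11071 UMIs per cell under the Cav3.2KO label and 12522 under the WT label. Cells were put into classes by marker genes, and 10 classes had at least 50 cells in each library. All markers of 8 classes, 11 of 12 in the macrophage gate and 9 of 10 in the microglia gate were 4-fold or more above the median of the other classes. Markers alone set tumour cells apart from host cells of the oligodendrocyte lineage. The targeted gene went against its label: Cacna1h had 168 UMIs (1.67 CPM, that is UMIs of a gene per 1000000 mouse UMIs) under the Cav3.2KO label and 13 UMIs (0.250 CPM) under the WT label, a 6.67-fold difference (3.80 to 12.8). In the 9 host classes, where the genotype applies, 102 UMIs under the Cav3.2KO label stood against 2 UMIs under the WT label, a 22.7-fold difference (6.11 to 190). The deleted part of the gene is not named by the labels, and tags outside it check nothing about a deletion. An allele whose 3' end is still transcribed and an exchange of the labels cannot be told apart here, and an exchange would turn round every direction between the libraries. The groups are therefore called by their labels. The libraries also stood apart in sex-linked RNA: of the T cell gate, 75.2% of cells under the Cav3.2KO label had an Xist UMI and 20.9% a Y-linked UMI, against 0 of 609 cells (which allows a share of up to 0.493%) and 86.2% under the WT label. Of the tumour gate, 10.9% of cells had an Xist UMI and 1.91% a Y-linked UMI under the Cav3.2KO label. Under the WT label 0.656% and 3.77% did. Whether host cells or host RNA entered this gate unequally was not tested. The libraries shared 7 barcodes among the kept cells. Written alone, Cav3.2KO and WT stand for these 2 libraries as labelled.

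A ribosome needs a copy of nearly every ribosomal protein, so cells make these proteins in matched amounts. Their mRNAs are among the most abundant in growing cells. In vertebrates most of them begin with a C followed by a run of pyrimidines, the 5' terminal oligopyrimidine (TOP) tract, through which mTOR and the RNA-binding protein LARP1 control how fast they are translated. Transcription of the genes and of ribosomal RNA is raised by Myc, and both are high in dividing cells.

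Promoter sequences were read from RefSeq on GRCm38.p6 for 57 of the 77 standard members. A tract was counted where the annotated start is a C that opens a run of at least 5 letters C or T. Of the 57 members, 13 (22.8%) had one exactly at the start, against 3.01% of all 27025 genes with a promoter entry. Within 5 bases of the start the shares were 47.4% and 21.2%. None of 69 mitochondrial ribosomal protein genes had a tract at the start. The sequences shown are the 25 bases before and the 25 from the annotated start of the members on which the comparisons turn. Capitals mark a tract that opens within 5 bases of that start. The first 3 were higher by at least 25% under the Cav3.2KO label in all 10 classes. Rps2 was lower there by as much in all 10 classes, Rps6 in 9 and Rpl4 in 3. Rps27rt is a copy of Rps27.
Rps27, chr3:90213624-90213673, minus strand: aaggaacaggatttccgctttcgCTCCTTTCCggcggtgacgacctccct
Rps21, chr2:180257354-180257403, plus strand: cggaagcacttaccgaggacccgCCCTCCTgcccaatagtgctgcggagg
Rpl37, chr15:5116588-5116637, plus strand: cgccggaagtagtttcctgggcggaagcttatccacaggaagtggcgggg
Rps2, chr17:24720038-24720087, plus strand: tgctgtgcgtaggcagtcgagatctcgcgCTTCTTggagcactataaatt
Rps6, chr4:86857343-86857392, minus strand: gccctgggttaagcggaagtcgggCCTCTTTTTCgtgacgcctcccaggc
Rpl4, chr9:64173362-64173411, plus strand: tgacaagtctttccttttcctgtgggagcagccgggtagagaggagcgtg
Rps27rt, chr9:114982715-114982764, minus strand: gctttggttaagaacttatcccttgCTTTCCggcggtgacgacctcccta
By the RefSeq start, members with and without a tract within 5 bases were found at both ends of the comparison. Rps27 and Rps6 have one there, and Rpl37 and Rpl4 do not. In Rpl4 the gene start of another annotation, GENCODE M21, at chr9:64173375 lies earlier in the printed bases, outside that limit. The C there opens a run of more than 5 letters C or T, so Rpl4 has a tract by that start. The Rpl37 bases end before the start of the gene at chr15:5116645, so a tract at that start would not be seen. The absence of a tract in Rpl37 and Rpl4 is thus shown for the RefSeq start only. Rps27 and Rps27rt share a run of 24 of these 50 bases, and their 3' ends, where the tags lie, were not compared, so the split of reads between the copies is not known.

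All 77 standard members were abundant in both libraries. Over all kept cells they ranged between 607 and 4536 CPM under the Cav3.2KO label, with a median of 2182 CPM, and between 536 and 4770 CPM under the WT label, with a median of 2208 CPM. A 3' tag is counted once per transcript, so these levels are not divided by length. The 5 members with the highest levels were Rpl23, Rps12, Rpl13, Rps20 and Rpl19. Rpl23, a large subunit protein, had 4536 CPM in Cav3.2KO and 4360 CPM in WT, and Rps12 had 4367 CPM in Cav3.2KO and 4473 in WT. Rpl13 had 4031 CPM in Cav3.2KO and 4770 in WT, Rps20 4422 CPM in Cav3.2KO and 4370 in WT, and Rpl19 3713 CPM in Cav3.2KO and 4326 in WT. Rpl13 and Rpl19 were lower in Cav3.2KO, and the other 3 were nearly level. The large subunit genes together took 10.1% of all UMIs under the Cav3.2KO label and 10.2% under the WT label, and the small subunit genes 7.92% in Cav3.2KO and 8.18% in WT.

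Most paralogs lay below the standard members, and the highest of them, Rpl36al, was near the lowest standard member, Rpl31, with 607 CPM in Cav3.2KO and 536 in WT. Rpl36al, an autosomal copy of the X-linked Rpl36a, had 635 CPM in Cav3.2KO and 518 CPM in WT. Rpl22l1, the paralog of Rpl22, had 394 CPM in Cav3.2KO and 346 in WT, and Rps27l, a p53 target, had 262 CPM in Cav3.2KO and 252 in WT. Rpl7l1, which acts in the assembly of the large subunit, had 63.5 CPM in Cav3.2KO and 83.6 in WT, and Rps27rt had 17.9 CPM in Cav3.2KO and 13.1 in WT. Of the members known from muscle or testis, Rpl3l had 2.34 CPM in Cav3.2KO and 0.903 in WT, Rpl39l had 77 UMIs in Cav3.2KO and 35 in WT, and Rpl10l had 1 UMI in Cav3.2KO and 0 in WT. Rps19bp1 had 47.1 CPM in Cav3.2KO and 55.2 in WT.

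The share of all UMIs that came from these genes differed more between cell classes than between the libraries. Under the Cav3.2KO label all members together took 18.1% of the UMIs, and under the WT label 18.4%. The B, T and NK cell gates were at the top with 21.1% to 24.4%. Microglia and mature dendritic cells, the migratory Ccr7 state, were at the bottom with 10.5% to 11.9%. The highest class was 2.19-fold above the lowest under the Cav3.2KO label (B cells over mature dendritic cells) and 2.22-fold under the WT label (NK cells over microglia). The order of the 10 classes was alike in both libraries, except that the lymphocytes and the lowest pair changed places within themselves.

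In the tumour gate the members took 18.6% of the UMIs of 994 cells under the Cav3.2KO label, against 19.9% of 610 cells under the WT label. Type 1 dendritic cells had 17.8% in Cav3.2KO and 17.4% in WT, plasmacytoid dendritic cells 16.9% in Cav3.2KO and 16.0% in WT, and macrophages 16.7% in Cav3.2KO and 15.6% in WT. Monocytes had 13.9% under both labels. The middle group of classes therefore lay between the lymphocytes and the microglia in both libraries. Cells of a class spread widely, and in the microglia gate the quartiles were 4.83% and 13.6% under the Cav3.2KO label and 5.04% and 12.4% under the WT label.

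**Figure D1:**
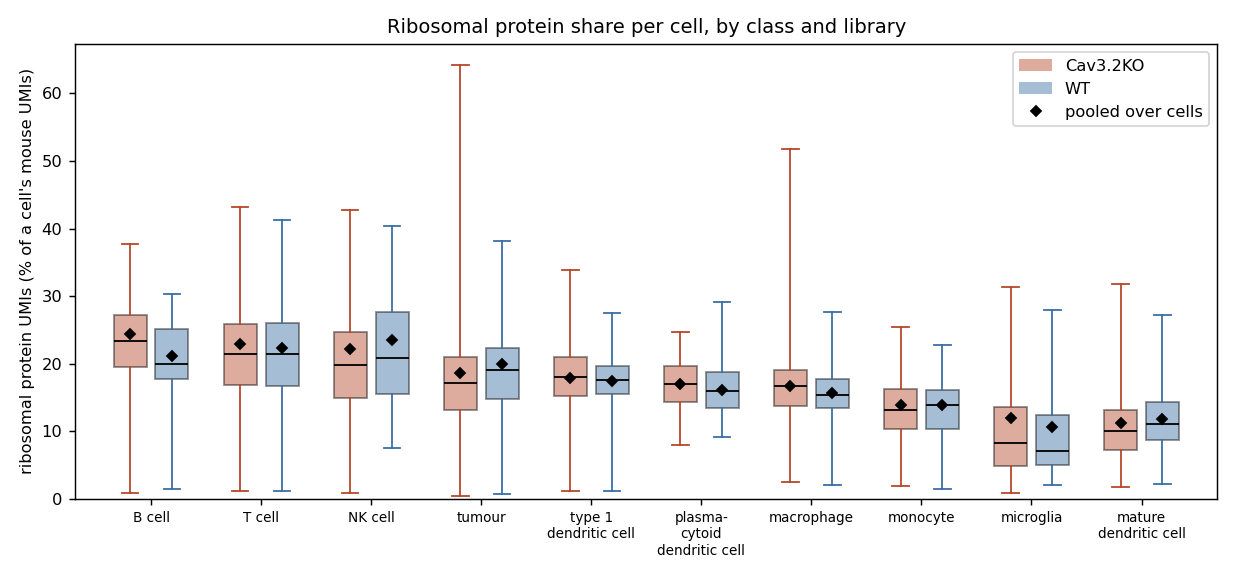
Share of a cell's mouse UMIs that came from the 86 ribosomal protein genes, in percent, for 10 marker-gated classes, with Cav3.2KO left and WT right in each pair. Boxes are quartiles with the median over cells, whiskers run from the lowest to the highest cell, and diamonds are the shares of summed UMIs, which run from 10.5% (WT microglia) to 24.4% (Cav3.2KO B cells).

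Between the libraries, the share was higher under the Cav3.2KO label in 6 of 10 classes and lower in 4, and in none by as much as 25%. Of the 4, monocytes were nearly level, at a log2 ratio of -0.0055 (-0.015 to 0.0045). B cells differed most, with 24.4% of the UMIs of 285 cells under the Cav3.2KO label, against 21.1% of 55 cells under the WT label (log2 ratio 0.21). The B cells under the Cav3.2KO label were also deeper, at a median of 7014 UMIs against 3862 in WT. Among B cells with under 6000 UMIs the shares were 21.3% in Cav3.2KO and 20.7% in WT, and among those of 6000 to 12000 UMIs 24.7% in 143 cells in Cav3.2KO and 21.5% in 7 cells in WT. Microglia had 11.9% in Cav3.2KO and 10.5% in WT (log2 ratio 0.18), with medians of 11032 UMIs in Cav3.2KO and 7992 in WT. By depth, the microglia differed in both directions. Under 6000 UMIs they had 5.55% in Cav3.2KO and 8.76% in WT, at 6000 to 12000 UMIs 7.62% in Cav3.2KO and 6.85% in WT, and at 12000 to 24000 UMIs 12.4% in Cav3.2KO and 12.7% in WT. The part of depth in these differences was not tested.

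NK cells and tumour cells were on the other side. NK cells had 22.1% under the Cav3.2KO label and 23.4% under the WT label (log2 ratio -0.08). In the tumour gate the log2 ratio was -0.09, and the median cell had 17.2% under the Cav3.2KO label and 19.1% under the WT label. Tumour cells of 6000 to 12000 UMIs had 11.1% in Cav3.2KO and 8.83% in WT, and those of 12000 to 24000 UMIs 14.9% in Cav3.2KO and 16.5% in WT. Tumour cells of 24000 to 48000 UMIs had 18.3% in Cav3.2KO and 19.6% in WT, while those over 48000 UMIs had 21.7% in Cav3.2KO and 21.9% in WT. T cells had 22.9% in Cav3.2KO and 22.3% in WT (log2 ratio 0.03), with the same median over cells of 21.4% under both labels. In this gate the labels differed in both directions, and by less than cells under 6000 UMIs differed from deeper ones of the same label. T cells under 6000 UMIs had 18.6% in Cav3.2KO and 18.7% in WT, and those of 6000 to 12000 UMIs 21.8% in Cav3.2KO and 22.5% in WT. T cells of 12000 to 24000 UMIs had 24.0% in Cav3.2KO and 23.2% in WT, and those of 24000 to 48000 UMIs 24.7% in Cav3.2KO and 23.4% in WT.

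Within the T cell gate the share followed the marker state in the same order under both labels. CD8 cells had the highest share, 26.1% in 465 cells under the Cav3.2KO label and 24.5% in 285 cells under the WT label. CD4 cells without Foxp3 had 22.1% in Cav3.2KO and 20.7% in WT, and Foxp3 cells, the regulatory T cells, had 19.3% in Cav3.2KO and 18.0% in WT. Tumour cells with UMIs of at least 2 division markers had 19.7% in Cav3.2KO and 20.4% in WT, and the other tumour cells had 17.1% in Cav3.2KO and 18.2% in WT. The dividing tumour cells were above the rest in both libraries, and they were also deeper, at medians of 37640 UMIs against 22914 in Cav3.2KO and 39512 UMIs against 21691 in WT. The part of depth was not tested. Type 1 dendritic cells went the other way, with 17.4% in dividing and 18.2% in other cells in Cav3.2KO and 16.2% in dividing and 18.4% in other cells in WT.

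Single members differed between the libraries far more than their sum. A member was called where the higher CPM was at least 25% above the lower, among genes with at least 100 UMIs over both libraries. Over the 10 classes, 204 of 822 measured pairs of member and class were higher under the Cav3.2KO label and 96 were lower, against 17.1% and 17.6% of the 68042 pairs over all genes. At a fold of 1.5 the counts were 101 and 14 pairs, against 7.18% and 5.85% of all. In T cells 20 of 83 members were higher and 3 lower, where 13.1% and 11.6% of all genes were. In macrophages 21 of 83 were higher and 2 lower (11.8% and 16.9% of all genes), and in microglia 26 of 82 were higher and 3 lower (14.2% and 17.5%). B cells had 32 of 82 higher and 1 lower (23.7% and 25.2% of all genes). In these 4 classes a larger share of members than of all genes was higher, and a smaller share was lower.

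Plasmacytoid and type 1 dendritic cells each had 21 of 82 members higher and 5 lower, against a background of 15.4% and 19.6% in the first and 14.0% and 16.4% in the second. In the tumour gate 17 of 83 were higher and 26 lower (22.1% and 18.5% of all genes), and in NK cells 15 of 83 were higher and 22 lower (21.8% and 18.1%). Mature dendritic cells had 14 of 81 higher and 15 lower (17.3% and 16.1%), and monocytes 17 of 81 higher and 14 lower (19.7% and 22.8%). Beside all genes, the dendritic gates named first were like the 4 classes above. The tumour gate and NK cells had more members lower than this background, and the last 2 classes lay near it. Most of its genes have fewer UMIs than the standard members. Among other genes at 500 CPM or more, 49.1% passed the fold in either direction in the tumour gate and 40.5% in NK cells. In mature dendritic cells 18.8% did and in monocytes 27.4%, with 16.0% (T cells) to 36.4% (B cells) in the other classes. Beside these abundant genes the reading changed. Taken in both directions together, the members called lay near their share in the tumour gate and in NK cells. In mature dendritic cells and monocytes the members called lay above it. The shares of abundant genes are not split by direction, so the lower members alone were not compared with them.

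Which members were higher and which lower followed the length of the coding sequence. Summed, the short members were higher and the long members lower under the Cav3.2KO label in every class compared. The 26 shortest standard members, with coding sequences of 75 to 405 bases, together took 5.99% of all UMIs under the Cav3.2KO label and 4.72% under the WT label (log2 ratio 0.35). The 25 longest, of 582 to 1257 bases, took 5.76% in Cav3.2KO and 7.17% in WT (log2 ratio -0.32), and the 26 between them 6.17% in Cav3.2KO and 6.40% in WT (log2 ratio -0.05). The sum of the short members was higher under the Cav3.2KO label in 10 of 10 classes, by log2 ratios between 0.26 in mature dendritic cells and 0.55 in microglia. The sum of the long members was lower in 10 of 10, by log2 ratios between -0.04 in B cells and -0.40 in the tumour gate. No long member was called higher, and no short member called lower, in any of the 10 classes.

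**Figure D2:**
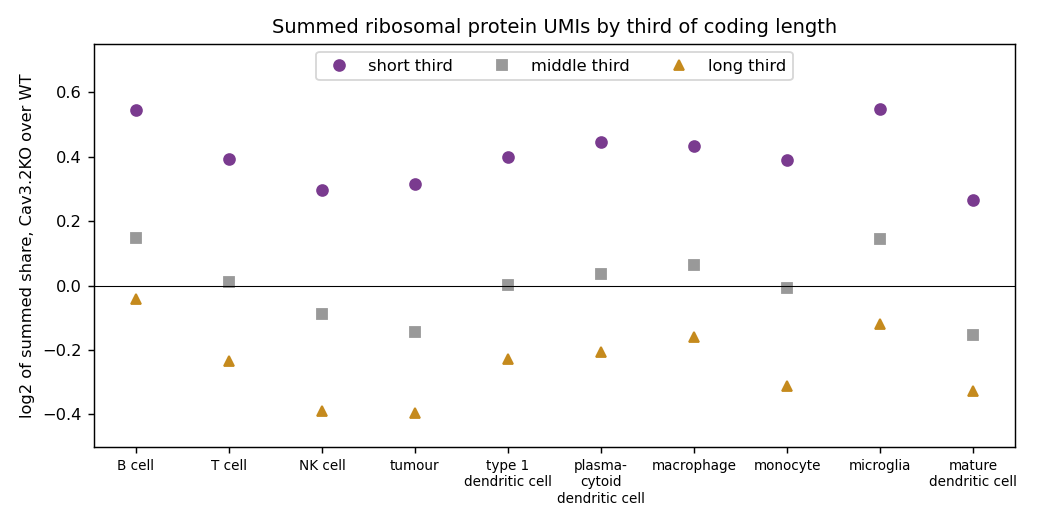
Log2 ratio, Cav3.2KO over WT, of the summed share of UMIs of the 26 shortest (circles), 26 middle (squares) and 25 longest (triangles) standard members by coding length, for each class. The circles lie above 0 and the triangles under 0 in all 10 classes.

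Across the 77 members, Spearman's rho between coding length and the log2 ratio ran from -0.84 in B cells to -0.93 in T cells, and was -0.91 over all kept cells. These are descriptions across genes of the same 2 libraries, and genes are not replicates. With the length of the whole transcript in place of the coding sequence, rho was -0.46 over all kept cells. Other genes showed a smaller difference of the same kind at the short end. Over all kept cells, the median log2 ratio was 0.64 for the 10 members with under 300 coding bases and 0.15 for 95 other genes of that length. At 600 bases to under 1000 it was -0.34 for 20 members and -0.10 for 352 other genes, and at 1000 bases or more -0.39 for 2 members and 0.04 for 996 other genes. The 13 members with a tract exactly at the start are shorter, at a median of 390 coding bases against 462 for the 44 without, and had a median log2 ratio of 0.36 against 0.01 in T cells and 0.11 against -0.16 in the tumour gate. Whether the order with length came from the cells or from the making of the libraries was not tested.

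**Figure D3:**
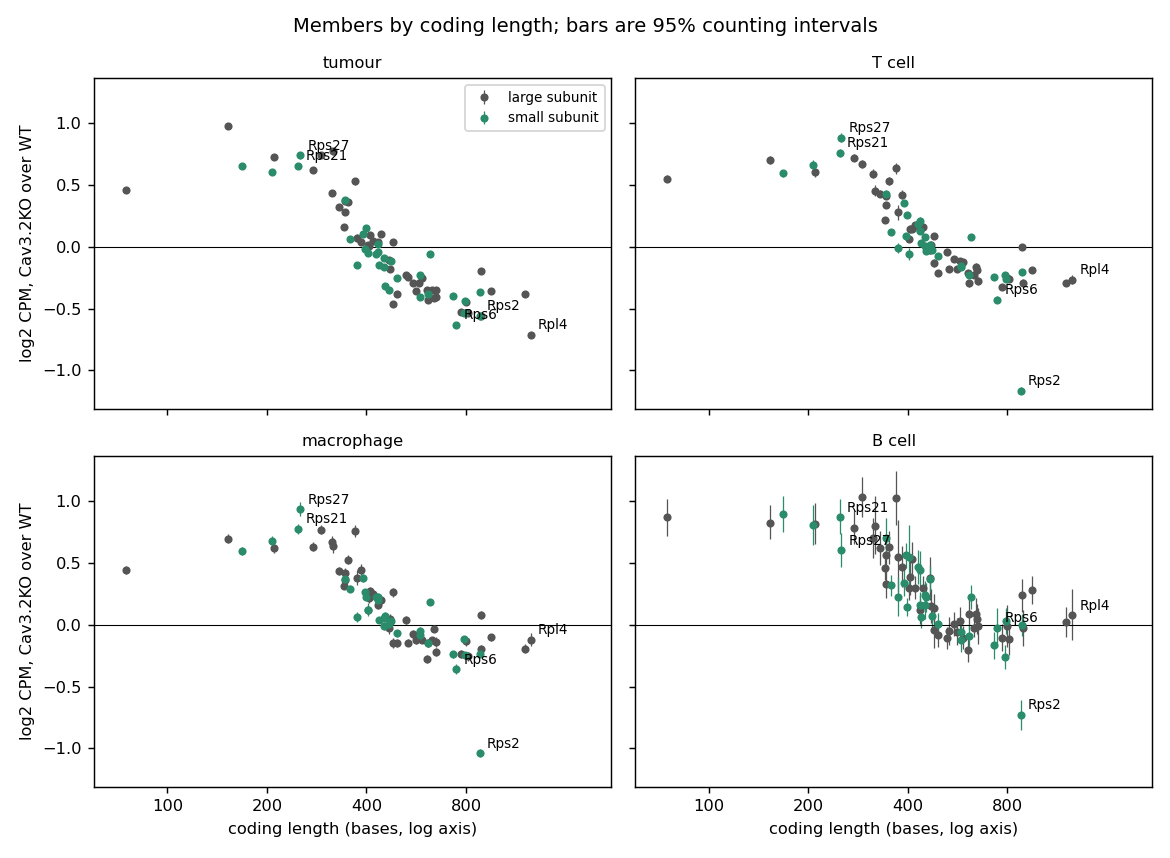
Log2 ratio of CPM, Cav3.2KO over WT, of the 77 standard members against coding length in bases (log axis), in 4 classes, with grey for large and green for small subunit proteins and 95% counting intervals. In each panel the ratio falls with length, and Rps2 lies under its neighbours in the T cell, macrophage and B cell panels and among them in the tumour panel.

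Among the short members of the small subunit, Rps27, a zinc finger protein (chr3:90212522-90213651), had 2052 CPM in T cells under the Cav3.2KO label and 1113 CPM under the WT label, a log2 ratio of 0.88 (0.85 to 0.92). In NK cells it had 2275 CPM in Cav3.2KO and 1113 in WT (1.03), in macrophages 1072 CPM in Cav3.2KO and 561 in WT (0.94), and in the tumour gate 1101 CPM in Cav3.2KO and 658 in WT (0.74). Its log2 ratio lay between 0.51 and 1.03 over the 10 classes, so the library labelled Cav3.2KO was the higher in each. Rps21 (chr2:180257377-180258445), which acts in the maturation of the small subunit RNA, had 2658 CPM in T cells under the Cav3.2KO label and 1568 CPM under the WT label (0.76), and was called higher in all 10 classes. Rps28 and Rps29 were also called higher in all 10 classes, with median log2 ratios of 0.64 and 0.63.

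Of the large subunit, Rpl39 (chrX:37082520-37085402), a very small protein in the wall of the exit tunnel, had 2500 CPM in the tumour gate under the Cav3.2KO label and 1267 CPM under the WT label (0.98). Its range over the classes was 0.57 to 0.99. Rpl37 (chr15:5116645-5119140) had 4895 CPM in Cav3.2KO and 2926 in WT in the tumour gate (0.74), and 2816 CPM in Cav3.2KO and 1378 in WT in B cells (1.03). Rpl37a had 2853 CPM in Cav3.2KO and 1730 in WT in T cells (0.72) and 3088 CPM in Cav3.2KO and 1867 in WT in NK cells (0.73). The members Rpl34, Rpl36, Rpl36a, Rpl37, Rpl37a, Rpl38 and Rpl39 were called higher under the Cav3.2KO label in 10 of 10 classes. Rpl41, whose coding sequence of 75 bases is the shortest, was called higher in 9, and its median log2 ratio of 0.54 was under those of Rpl39 (0.69) and Rpl38 (0.66).

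Rpl35 was among the 4 highest in 3 classes. In macrophages it had 1192 CPM in Cav3.2KO and 704 in WT (0.76). In B cells it had 1603 CPM in Cav3.2KO and 789 CPM in WT, a log2 ratio of 1.02 (0.81 to 1.24), and in type 1 dendritic cells 1012 CPM in Cav3.2KO and 601 in WT (0.75). The highest in microglia were Rpl39 with 1607 CPM in Cav3.2KO and 808 in WT (0.99) and Rpl37 with 1590 CPM in Cav3.2KO and 808 in WT (0.98). Next came Rps27 with 722 CPM in Cav3.2KO and 371 in WT (0.96) and Rpl38 with 1017 CPM in Cav3.2KO and 541 in WT (0.91). In mature dendritic cells the largest of these ratios belonged to Rpl36a, with 365 CPM in Cav3.2KO and 225 in WT (0.70, 0.47 to 0.93). Rpl36, of the large subunit, had 1361 CPM in Cav3.2KO and 796 in WT in plasmacytoid dendritic cells (0.77), and Rps29 had 2501 CPM in Cav3.2KO and 1540 in WT in monocytes (0.70).

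At the other end stood long members. Rps6 (chr4:86854660-86857412), the small subunit protein that S6 kinases phosphorylate after mTOR is active, had 1464 CPM in the tumour gate under the Cav3.2KO label and 2264 CPM under the WT label, a log2 ratio of -0.63 (-0.65 to -0.61). In NK cells it had 1482 CPM in Cav3.2KO and 2396 in WT (-0.69) and in T cells 1697 CPM in Cav3.2KO and 2283 in WT (-0.43). It was called lower in 9 of 10 classes, the exception being B cells with 1485 CPM in Cav3.2KO and 1511 in WT. Rpl4 (chr9:64173375-64178666), which lines the exit tunnel and has the longest coding sequence, had 712 CPM in Cav3.2KO and 1167 in WT in the tumour gate (-0.71) and 865 CPM in Cav3.2KO and 1283 in WT in NK cells (-0.57). In B cells Rpl4 had 939 CPM in Cav3.2KO and 889 in WT, so the direction was not shared by all classes.

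Rpl5, which with Rpl11 carries the 5S RNA and binds Mdm2, had 1556 CPM in the tumour gate under the Cav3.2KO label and 2293 CPM under the WT label (-0.56). Rpl8 was called lower in 6 of 10 classes and had 1678 CPM in Cav3.2KO and 2419 in WT in monocytes (-0.53). Rpl3, which contacts the peptidyl transferase centre, had 985 CPM in Cav3.2KO and 1407 in WT in monocytes (-0.51). Rpl15 had 1867 CPM in Cav3.2KO and 2930 in WT in NK cells (-0.65). Rpl12, of the stalk base, had 807 CPM in Cav3.2KO and 1268 in WT in mature dendritic cells (-0.65), and there Rpsa, also known as the laminin receptor, had 2352 CPM in Cav3.2KO and 3246 in WT (-0.46). Rpsa was called lower in 5 of 10 classes.

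The stalk proteins, which recruit the elongation factors, split by length as well. Rplp0, the long base of the stalk, had 4422 CPM in the tumour gate under the Cav3.2KO label and 5680 CPM under the WT label (-0.36), and 4057 CPM in Cav3.2KO and 4632 in WT in T cells (-0.19). Its short partner Rplp2 had 2369 CPM in Cav3.2KO and 1832 in WT in the tumour gate (0.37) and 2560 CPM in Cav3.2KO and 1923 in WT in T cells (0.41). Rplp2 was called higher in 9 of 10 classes, and Rplp0 was called lower in 3 and higher in 0. Rplp1, with 342 coding bases against 345 for Rplp2, was called higher in 2 of 10 classes, at a median log2 ratio of 0.20. The split was thus weaker for Rplp1. In B cells Rplp0 had 3441 CPM in Cav3.2KO and 2830 in WT (0.28).

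Rps2 (chr17:24718116-24721929, plus strand), a small subunit protein at the mRNA entry channel, went beyond what its length neighbours showed. In the 9 host classes together it had 1298 CPM in Cav3.2KO and 2839 CPM in WT, 2.19-fold lower (log2 ratio -1.13). NK cells had 1329 CPM in Cav3.2KO and 3703 in WT (-1.48), T cells 1588 CPM in Cav3.2KO and 3559 in WT (-1.16), monocytes 810 CPM in Cav3.2KO and 1880 in WT (-1.21) and B cells 1650 CPM in Cav3.2KO and 2734 in WT (-0.73). Its ratio was under that of each of the 11 members with coding sequences of 700 to under 1000 bases in 9 of 9 host classes. In the tumour gate it had 3372 CPM in Cav3.2KO and 4968 in WT (-0.56) and lay among those 11, above Rps6. Rps2 thus lay apart from its neighbours in the host classes and among them in the tumour gate, and the difference between host and tumour was not tested.

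Summed over the host classes, Rps2 was nearly level between cells of both kinds of sex-linked RNA. Under the Cav3.2KO label, host cells with Xist and no Y-linked UMIs had 1292 CPM of Rps2 and host cells with Y-linked and no Xist UMIs had 1302 CPM, against 2848 CPM in cells of the second kind under the WT label. Single classes differed in both directions: microglia had 984 CPM in cells with Xist and 581 CPM in cells with Y-linked UMIs, and monocytes 765 CPM in cells with Xist and 1065 CPM in cells with Y-linked UMIs. Under the WT label, the cells with Y-linked UMIs had 1810 CPM in microglia and 1934 CPM in monocytes, above both kinds of Cav3.2KO cells. Rps2 lies 0.652 Mb from Cacna1h on chromosome 17. The neighbouring member Rpl3l (chr17:24727820-24736143), the muscle paralog of Rpl3, was higher under the Cav3.2KO label in plasmacytoid dendritic cells, with 113 UMIs (46.0 CPM) there and 1 UMI (1.80 CPM) under the WT label, a ratio of 25.6 (4.49 to 1018). These UMIs were in 75 of 211 cells under the Cav3.2KO label and in 1 of 61 cells under the WT label, at medians of 11186 UMIs in Cav3.2KO and 8577 in WT. In T cells, at medians of 8781 UMIs in Cav3.2KO and 7719 in WT, Rpl3l had UMIs in 2 of 1587 cells in Cav3.2KO and in 0 of 609 cells in WT, which allows a share of up to 0.493%. Rpl3l passed the UMI minimum only in plasmacytoid dendritic cells, where nearly all its UMIs came from the library labelled Cav3.2KO. Macrophages had 3.80 CPM in Cav3.2KO and 3.45 in WT, and the tumour gate 0.315 CPM in Cav3.2KO and 0.554 in WT. Over the 9 host classes the ratio, Cav3.2KO over WT, was 2.42 (1.64 to 3.68). In host cells with Y-linked and no Xist UMIs it was 1.12 (0.523 to 2.27), but this set different classes against each other. Plasmacytoid dendritic cells gave 11 of the 12 UMIs under the Cav3.2KO label. Macrophages gave 24 of the 29 UMIs under the WT label, and 0 of 52 such macrophages had one under the Cav3.2KO label. Among plasmacytoid dendritic cells of this kind, 8 of 26 had an Rpl3l UMI under the Cav3.2KO label and 1 of 53 under the WT label. Within the library labelled Cav3.2KO, Rpl3l had 33.2 CPM in plasmacytoid dendritic cells with Y-linked and no Xist UMIs. Those with Xist and no Y-linked UMIs had 48.2 CPM. Of the 6 members farther along chromosome 17, Rps28 and Rpl36 are short and had median log2 ratios of 0.64 and 0.65, and Rps10, Rpl10a, Rps18 and Rpl7l1 had medians between -0.25 and -0.05.

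**Figure D4:**
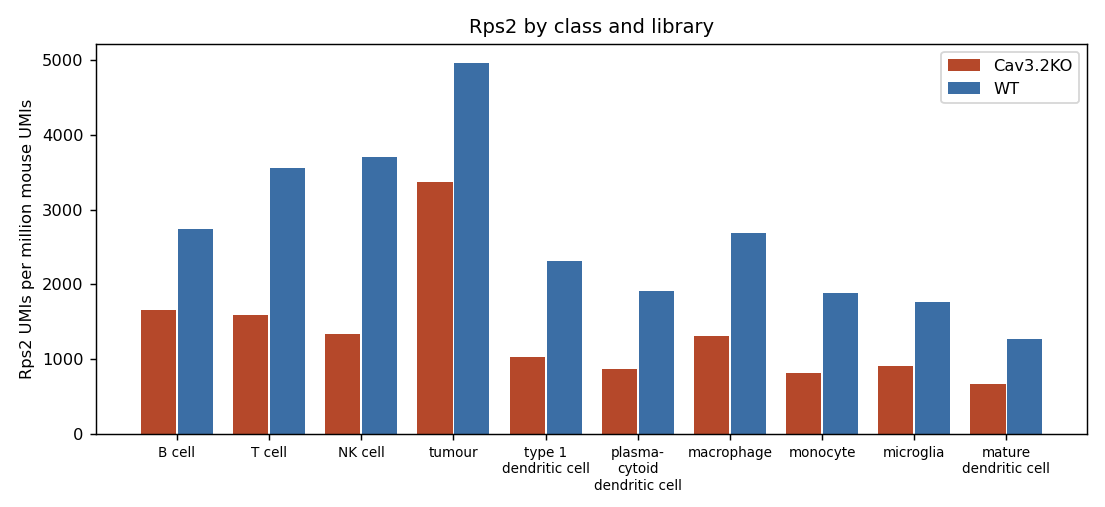
Rps2 level (CPM) in 10 classes, with Cav3.2KO left and WT right in each pair and 1 library per bar. The WT bar is the higher in every class, and the gap is widest relative to the bar in NK cells (1329 CPM in Cav3.2KO and 3703 in WT).

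Of the 4 X-linked members, the long ones were lower and the short ones higher under the Cav3.2KO label over all kept cells. Rps4x had 2832 CPM in Cav3.2KO and 3788 CPM in WT, and Rpl10 had 2504 CPM in Cav3.2KO and 3219 in WT. Rpl36a had 877 CPM in Cav3.2KO and 575 in WT, and Rpl39 2392 CPM in Cav3.2KO and 1358 in WT. Set beside members of nearest coding length, Rpl10 and Rpl36a lay within the range of those neighbours in 8 of 10 classes each, Rps4x in 6 and Rpl39 in 5.

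The make-up of the ribosomal protein UMIs differed between classes for some members in both libraries alike. Of 81 members with enough UMIs, the highest class was at least 2-fold above the lowest for 20 and less than 1.5-fold above it for 37, with a median of 1.53-fold. Rps27l differed most. It made up 1.13% of the ribosomal protein UMIs of mature dendritic cells under the Cav3.2KO label and 0.812% under the WT label, against 0.0473% in Cav3.2KO and 0.0356% in WT in B cells. Mature dendritic cells had 1261 CPM in Cav3.2KO and 956 in WT and B cells 115 CPM in Cav3.2KO and 75.1 in WT, so in mature dendritic cells this paralog reached the level of standard members.

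Rpl31 stood out in plasmacytoid dendritic cells, with 0.987% of ribosomal protein UMIs under the Cav3.2KO label and 0.857% under the WT label, against 0.268% in Cav3.2KO and 0.212% in WT in B cells. Rps19, a small subunit protein mutated in Diamond-Blackfan anaemia in humans, was high in mature dendritic cells at 2.58% in Cav3.2KO and 2.56% in WT and low in plasmacytoid dendritic cells at 0.942% in Cav3.2KO and 0.994% in WT. The class with the highest share was the same under both labels for each of these 3 members.

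Rpsa made up 2.27% of the ribosomal protein UMIs of T cells under the Cav3.2KO label and 2.67% under the WT label, and 0.968% in Cav3.2KO and 1.17% in WT of those of the tumour gate. Rpl24 had 1.27% in Cav3.2KO and 1.47% in WT in mature dendritic cells and 0.590% in Cav3.2KO and 0.627% in WT in the tumour gate. The tumour gate was the lowest class for both members in each library. It was the highest for Rpl37, at 2.63% in Cav3.2KO and 1.47% in WT against 1.09% in Cav3.2KO and 0.701% in WT in T cells, and for Rps2, at 1.81% in Cav3.2KO and 2.50% in WT against 0.599% in Cav3.2KO and 1.08% in WT in mature dendritic cells. For Rpl37 and Rps2 the gap between libraries was as wide as some gaps between classes. Rpl7l1 had 0.0452% in Cav3.2KO and 0.0680% in WT in microglia and 0.0206% in Cav3.2KO and 0.0236% in WT in NK cells.

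**Figure D5:**
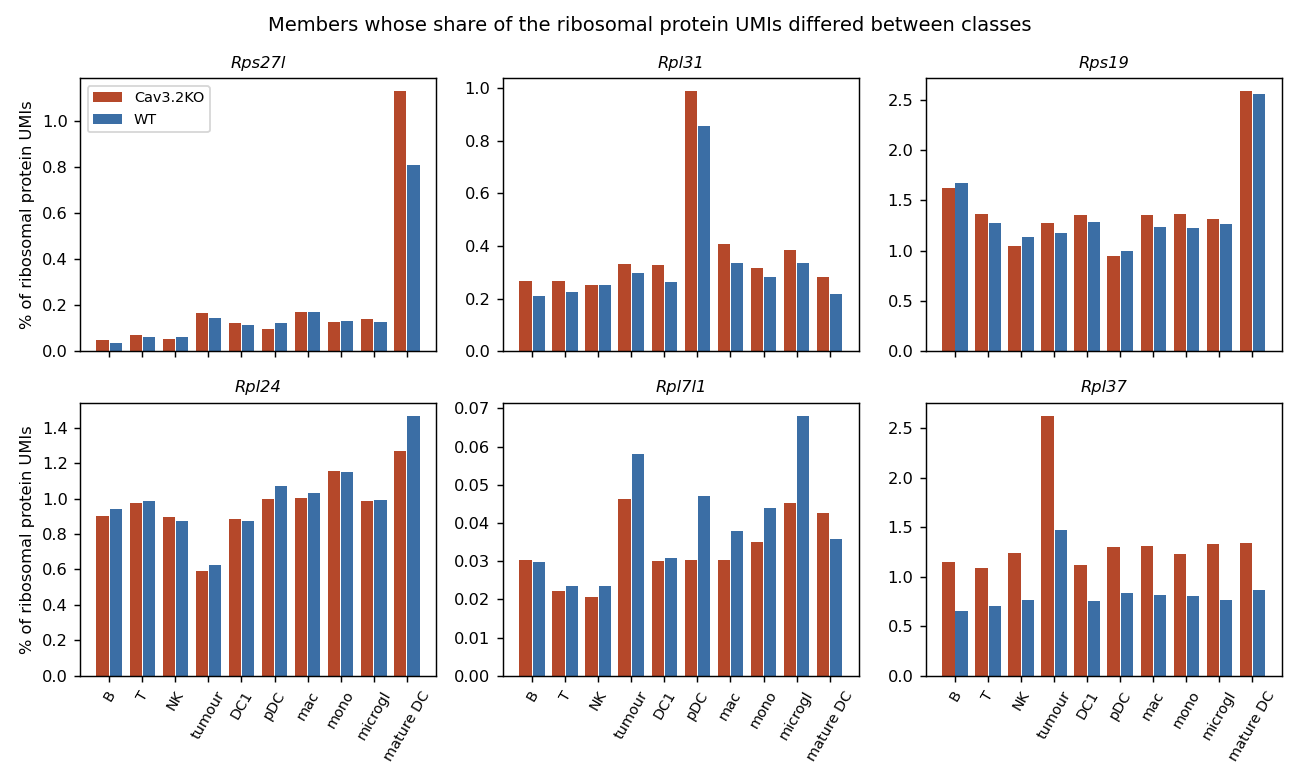
Share of the ribosomal protein UMIs, in percent, taken by 6 members in each class, with Cav3.2KO left and WT right. Classes are B, T and NK cells, the tumour gate, type 1 (DC1), plasmacytoid (pDC) and mature dendritic cells (mature DC), macrophages (mac), monocytes (mono) and microglia (microgl), and Rps27l reaches 1.13% in Cav3.2KO and 0.812% in WT in mature DC.

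The paralogs were not uniform between libraries. Rpl22l1 was called higher under the Cav3.2KO label only in B cells, with 602 CPM there and 447 CPM in WT (0.43), while Rpl22 was called higher in 8 of 10 classes. Rpl36al was called higher in 3 classes: the tumour gate with 608 CPM in Cav3.2KO and 481 in WT (0.34), type 1 dendritic cells with 820 CPM in Cav3.2KO and 639 in WT (0.36) and microglia with 477 CPM in Cav3.2KO and 332 in WT (0.52). Rpl7l1 was called lower in 4 classes, among them the tumour gate with 86.1 CPM in Cav3.2KO and 115 in WT (-0.42). Rps27rt was called higher in T, NK and B cells and in macrophages, classes in which Rps27 was higher too.

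Of the ribosomal proteins outside the symbol rule, Fau, made as a fusion with a ubiquitin-like protein, had 4818 CPM in Cav3.2KO and 3791 in WT in T cells (0.35). Rack1, a long member of the small subunit that docks kinases, had 1575 CPM in Cav3.2KO and 2627 in WT in the tumour gate (-0.74).

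Of 20 genes of ribosome assembly and RNA polymerase I, 11 of 20 measured in the tumour gate were lower under the Cav3.2KO label and 0 higher, where 18.5% of all genes were lower and 22.1% higher. In T cells 13 of 20 were lower and 0 higher (11.6% lower and 13.1% higher among all genes). In NK cells 12 of 16 were lower and 0 higher (18.1% lower and 21.8% higher among all genes), with a median log2 ratio of -0.66, where the median over all genes was 0.06. B cells went the other way with 8 of 10 higher and 0 lower, where 23.7% of all genes were higher and 25.2% lower. Of these genes, Fbl, which methylates ribosomal RNA, had log2 ratios of -0.52 in T cells, -0.66 in NK cells and -0.68 in type 1 dendritic cells. Ncl had 0.65 in B cells. The ribosomal protein share was lower in NK cells and higher in B cells as well, but it was higher in T cells.

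Of 19 other mRNAs known for a TOP tract, 1 was higher and 10 were lower in the tumour gate, 1 higher and 9 lower in NK cells, and 5 higher and 0 lower in B cells. Among all genes, 22.1% were higher and 18.5% lower in the tumour gate, 21.8% higher and 18.1% lower in NK cells, and 23.7% higher and 25.2% lower in B cells. Npm1, a nucleolar chaperone, had 1580 CPM in the tumour gate under the Cav3.2KO label and 2763 CPM under the WT label (-0.81). In macrophages Gas5, a spliced host gene of snoRNAs, had a log2 ratio of 0.50 and Vim 0.61, and in monocytes Eif4ebp1, an mTOR target, had 142 CPM in Cav3.2KO and 307 in WT (-1.11). Of the mitochondrial ribosomal proteins, 2 of 78 were higher and 29 lower in the tumour gate, 3 of 70 higher and 40 lower in NK cells, and 22 of 44 higher and 4 lower in B cells, beside the same shares of all genes.

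Within the library labelled Cav3.2KO, host cells with Xist and no Y-linked UMIs were set beside those with Y-linked and no Xist UMIs. T cells had 22.7% with Xist and 24.3% with Y-linked UMIs, B cells 24.6% with Xist and 24.1% with Y-linked UMIs, and macrophages 16.4% with Xist and 16.8% with Y-linked UMIs. Microglia differed most, with 12.5% and a median of 14266 UMIs for cells with Xist, against 8.98% and 7514 UMIs for cells with Y-linked UMIs. Monocytes went the other way, with 13.3% in 221 cells with Xist and 16.7% in 32 cells with Y-linked UMIs. Where host cells of both libraries were held to Y-linked and no Xist UMIs, the share gave a log2 ratio, Cav3.2KO over WT, of 0.12 in T cells, -0.20 in NK cells and 0.20 in B cells. It was -0.25 in microglia, the other sign from the 0.18 over all cells. In monocytes the log2 ratio was 0.27, where over all cells it was nearly level at -0.0055 (-0.015 to 0.0045). With host cells held in this way, and the tumour gate as it was, the summed short members were higher in 10 of 10 classes and the long ones lower in 9.

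Over the 20 profiles made by 10 classes and 2 libraries, the summed share moved most closely with Cnbp (Pearson's r 0.89), a zinc finger protein that binds TOP mRNAs, then Ssrp1 (0.89), Banf1 (0.88), Fkbp3 (0.88) and Pole4 (0.87). The profiles share libraries and depth, so these are descriptions. Of the members, 49 of 86 had r over 0.8 with the sum they are part of, against 26 of 2973 other genes at 50 CPM or more.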

How the data were processed

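The authors deposited UMI counts of every gene in every barcode of 2 libraries made with the 10x Genomics 3' v3.1 kit. Per the file headers, Cell Ranger 7.1.0 made them, and the submitters' processing notes also name Seurat 5.0.2, with no role, and the build mm10. The reference joined 36601 human and 32285 mouse genes, and only mouse genes were used.

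Kept barcodes had at least 500 mouse genes and no more than 10% mitochondrial UMIs: 1239 barcodes under the Cav3.2KO label and 3990 under the WT label had too few genes, and 555 under the Cav3.2KO label and 282 under the WT label too many mitochondrial UMIs. A cell joined the class with the highest share of markers detected, at least 50%, if the next class reached at most 75% of it. Ungated were 20.5% of cells in Cav3.2KO and 20.6% in WT. Doublets were limited by the gates alone, with Scrublet (scanpy 1.11.5) as an alternative. UMIs were summed per class and library. Shares have exact binomial intervals and ratios exact conditional ones. Positions and lengths came from GENCODE M21, promoters from RefSeq. The work used Python 3.11.15 with pandas 2.3.3, scipy 1.17.1, numpy 2.4.6 and matplotlib 3.10.9, and was tested on simulated data.

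Members and lists were chosen with earlier results of these data known. Named were the 4 highest and 4 lowest members per class with at least 500 UMIs, the 5 most abundant, the 10 most uneven between classes, paralogs, X-linked members and the 3 largest changes per class among other translation genes. Rps2's neighbours, Rplp0, Rplp1, Rplp2, Rpl3l and the length groups were added after values were seen. Alternatives changed the cell filters, gates, doublets, dividing cells, depth, denominators, members, fold and UMI minimum. Counts from barcodes cannot separate genes with near-identical copies. Some members that this rule names are not reported here.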

Additional observations from a re-analysis of the deposited data

Results flagged for a closer look

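The share of ribosomal protein UMIs differed between the libraries in opposite directions in different classes, and with 1 library per group the difference between classes was not tested. The log2 ratio, Cav3.2KO over WT, was -0.094 in the tumour gate, -0.082 in NK cells and -0.078 in mature dendritic cells. It was 0.034 in T cells, 0.21 in B cells, 0.078 in plasmacytoid dendritic cells, 0.036 in type 1 dendritic cells, 0.095 in macrophages and 0.18 in microglia.

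Inside the library labelled Cav3.2KO, host cells with Xist and no Y-linked UMIs were set against host cells with Y-linked and no Xist UMIs. The log2 ratio of the share was -0.099 in T cells and -0.033 in macrophages, but 0.16 in NK cells, 0.032 in B cells and 0.48 in microglia. The microglia with Xist had a median of 14266 UMIs and those with Y-linked UMIs 7514, and the part of depth was not tested.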

How the results depend on the processing

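No paired analysis was possible because each group has 1 library. For the same reason no library could be left out. The highest class share over the lowest was 2.19 under the Cav3.2KO label and 2.22 under the WT label. It was 2.22 in Cav3.2KO and 2.20 in WT without mitochondrial genes in the denominator, 2.82 in Cav3.2KO and 3.00 in WT as medians over cells, and 2.39 in Cav3.2KO and 2.36 in WT with every cell thinned to 2000 UMIs. At a fold of 1.5, 101 pairs of member and class were higher and 14 lower, in place of 204 and 96. With members split by transcript length, the long ones were lower under the Cav3.2KO label in 6 of 10 classes, in place of 10.

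Under the other alternatives 152 to 207 pairs were higher and 86 to 122 lower. The share was higher under the Cav3.2KO label in 5 to 7 classes and past 25% in 0. Of 139 recomputed log2 ratios of a class share 7 had the other sign. Among them were 3 in cells with Y-linked and no Xist UMIs, a setting with as few as 17 cells. These were microglia (-0.25), monocytes (0.27, from a nearly level -0.0055) and mature dendritic cells (0.04). Of 942 recomputed ratios of named members 0 had the other sign. Scrublet left out 346 cells in Cav3.2KO and 77 in WT, by the expected number of highest scores, since its own threshold marked 0.257% under the WT label. The settings with cells of 6000 to 24000 UMIs, without Rps2 and with transcript length were chosen after seeing the data.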

Other observations

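Classes with under 50 cells in a library were not compared, and their values only extend the range of the ribosomal protein share. Oligodendrocytes, which make myelin, had 5.48% in 107 cells under the Cav3.2KO label and 4.56% in 33 cells under the WT label. Neuroblasts had 8.20% in 88 cells in Cav3.2KO and 6.75% in 23 cells in WT. Neutrophils had the lowest share, with 3.85% in 8 cells in Cav3.2KO and 3.77% in 6 cells in WT. Plasma cells, which come from B cells and secrete antibody, had 9.20% in 28 cells in Cav3.2KO and 12.7% in 2 cells in WT, and so lay under the B cell gate in both libraries.

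Barcodes that were dropped had 5.38% ribosomal protein UMIs under the Cav3.2KO label and 5.83% under the WT label. The 5 pseudogene rows that the symbol rule leaves out had 45.3 CPM in Cav3.2KO and 59.0 CPM in WT. Human ribosomal protein genes of the joined reference had 71 UMIs in all barcodes of Cav3.2KO and 49 in those of WT.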
